A study of Homo sapiens with 6 samples.

Results

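The mitochondrial ribosomal protein genes are the nuclear genes whose symbols begin with MRPL, for the large subunit, or MRPS, for the small subunit, followed by a digit. They were taken from the gene count table by symbol, and pseudogenes and antisense genes were left out. This gave 77 protein-coding genes of 63677 genes in the table. The genes lie on 21 chromosomes, with 8 on chromosome 2 and 7 each on chromosomes 1, 11 and 17. MRPS21 had 0 fragments in each of the 6 libraries, and its only entry in the table sits on a patch sequence and not on a chromosome. The other 76 members had fragments, and all 76 entered the tests. MRPL45 was matched to no identifier of the table and was not analysed here.

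Mitochondria carry their own ribosome, which translates the few mRNAs encoded by mitochondrial DNA, all of them for subunits of the respiratory chain and the ATP synthase. Its ribosomal RNAs come from mitochondrial DNA, but every protein of it is made from nuclear genes in the cytosol and imported. Some of these proteins descend from bacterial ribosomal proteins, and others were added during mitochondrial evolution. The DNA-binding factors NRF1, GABPA (an ETS factor) and YY1 are textbook regulators of nuclear genes for mitochondrial proteins.

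The cells were HEK293, an established human embryonic kidney line grown in DMEM. They were transfected with siRNA using Lipofectamine RNAiMAX, and poly(A) RNA was taken 48 hours later and made into libraries with a TruSeq RNA kit. The control group received the NTC reagent, the siRAB3IP group an siRNA against circRAB3IP and the siCAMSAP1 group an siRNA against circCAMSAP1. Both targets are circular transcripts, one from RAB3IP and the other from CAMSAP1, and gene counts of poly(A) RNA do not resolve such transcripts, so the knockdowns were not checked here. There were 2 libraries per group, all from this 1 line and with no other allele or agent, and the labels name no separate cultures for them. The p-values therefore cover library-to-library spread, which may be technical. The groups are those of the authors' deposited tables, whose values match the count columns by library. In 4 of the 6 libraries the sample title names another group. With the titles 0 of 76 members were called in each comparison by edgeR, and so were 0 of all genes tested. At an unadjusted p under 0.05 there were 0, 3 and 0 members in siRAB3IP against control, siCAMSAP1 against control and siRAB3IP against siCAMSAP1. The share of all genes at that threshold is not given for the titles, so these counts are a description only.

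Between 37379217 and 39637733 fragments were assigned to genes per library, so that 3 fragments stood for 0.0726 to 0.0803 CPM, the fragments of a gene scaled to a common library size by the TMM method. Members took 0.433% to 0.489% of them. Of the markers chosen for HEK293, KRT8, KRT18 and VIM stood at 877, 432 and 236 CPM in control cells, INA at 1.56 CPM, and PAX2 and NEFM at 0.162 and 0.113 CPM. LHX1 was matched to no identifier. Among markers of other cell types, PTPRC, ALB, CD68 and MYH7 stood at 0.036 CPM or less and PECAM1 at 0. The PECAM1 entry sits on a patch sequence and not on a chromosome. CD68 shares 85.8% of its exon bases with other genes, and fragments touching more than 1 gene were not counted. These 2 values therefore cannot show absence. COL1A1, a fibroblast collagen, reached 8.95 CPM. KRT8, KRT18 and COL1A1 fell and INA rose in siRAB3IP against control, by -0.56, -0.72, -0.79 and 1.51 on the log2 scale (KRT8 not without siRAB3IP replicate 1), and the part of these changes in the results below was not tested.

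The promoters of the 5 members that differed in a comparison are shown first, as the 100 bases before the annotated start, from RefSeq on GRCh38.p14 and on the gene's strand. Capitals mark the only match among them to the motifs searched.

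MRPL58 (chr17:75012570-75012669, + strand): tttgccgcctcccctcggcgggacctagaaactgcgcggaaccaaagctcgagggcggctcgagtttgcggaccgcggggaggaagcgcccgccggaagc
MRPS27 (chr5:72320241-72320340, - strand): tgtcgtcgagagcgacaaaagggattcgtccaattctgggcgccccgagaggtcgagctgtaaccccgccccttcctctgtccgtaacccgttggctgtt
MRPL47 (chr3:179604647-179604746, - strand): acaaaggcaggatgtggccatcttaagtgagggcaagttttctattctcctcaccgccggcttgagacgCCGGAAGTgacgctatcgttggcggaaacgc
MRPL33 (chr2:27771619-27771718, + strand): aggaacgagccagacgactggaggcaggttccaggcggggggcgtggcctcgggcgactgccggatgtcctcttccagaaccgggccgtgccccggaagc
MRPS6 (chr21:34073478-34073577, + strand): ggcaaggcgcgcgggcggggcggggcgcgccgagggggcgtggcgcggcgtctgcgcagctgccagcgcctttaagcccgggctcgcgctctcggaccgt

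The 3 motifs were searched on both strands of the 300 bases from 250 before to 50 after each annotated start. They were GCGCATGCG for NRF1, CCGGAAGT for ETS factors such as GABPA, and AAGATGGCG for YY1. RefSeq promoters were matched for 68 members. The YY1 word was held by 13 of the 68 (19.1%), against 4.15% of 11768 protein-coding genes tested. The ETS word was held by 12 members (17.6%), against 8.86%. The NRF1 word was held by 3 members (4.41%), against 3.82%. At least 1 of the motifs was in 25 members (36.8%), against 15.6%. The median GC content of the windows was 59.7% in members and 64.3% in the protein-coding genes. These shares describe letters in the windows and not bound sites.

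The YY1 word lay mostly just after the start, in the members and over all protein-coding genes tested. In 10 of the 13 members (76.9%) it read in the forward direction and began 6 to 35 bases after the start, with a median of 11 bases. The same held for 302 of the 488 protein-coding genes with the word (61.9%), where it began 0 to 39 bases after the start with a median of 18. The word contains the triplet ATG. The 30 bases around it are shown for the 9 of these members in which they lay within the window, to let the shared word (capitals) be seen beside its flanks.

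MRPL38 (chr17:75904860-75904889, - strand): aggccggagggAAGATGGCGgcgccctggt
MRPL42 (chr12:93467511-93467540, + strand): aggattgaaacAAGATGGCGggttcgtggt
MRPL46 (chr15:88467362-88467391, - strand): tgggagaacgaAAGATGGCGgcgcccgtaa
MRPL50 (chr9:101398577-101398606, - strand): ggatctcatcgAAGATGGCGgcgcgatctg
MRPS10 (chr6:42217834-42217863, - strand): tcgggaccggcAAGATGGCGgcgcggacag
MRPS18A (chr6:43687764-43687793, - strand): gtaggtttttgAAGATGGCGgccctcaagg
MRPS18B (chr6:30617852-30617881, + strand): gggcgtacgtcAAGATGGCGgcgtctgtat
MRPS24 (chr7:43869480-43869509, - strand): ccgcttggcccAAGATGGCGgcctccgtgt
MRPS30 (chr5:44808949-44808978, + strand): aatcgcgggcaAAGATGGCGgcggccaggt

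**Figure D1:**
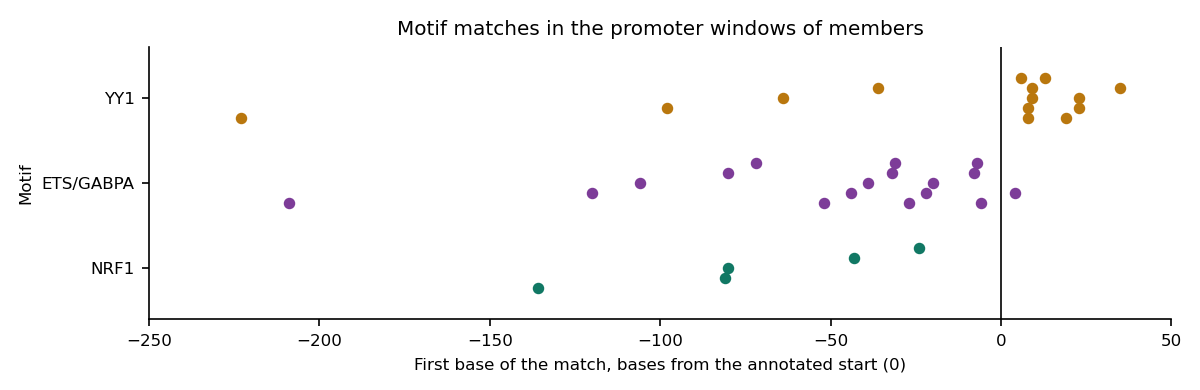
First base of each motif match in the promoter windows of the 68 matched members, in bases from the annotated start (x axis), for each of the 3 motifs (y axis, spread for visibility). Most YY1 matches lie after the start, from 6 to 35 bases, while the ETS matches lie almost all before it. MRPL47 and MRPS22 have several annotated starts, so a match of theirs can appear more than once. The NRF1 matches of MRPL17 at -81 and -80 overlap on opposite strands.

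None of the 9 was called in a comparison. Of the 5 called members, MRPL47 alone held a match, an ETS word 31 bases before its start in the window shown and 39 bases before a neighbouring start. The mRNAs of the factors themselves were not called: NRF1 differed by -0.28 (SE 0.095), GABPA by -0.18 (SE 0.092) and YY1 by 0.09 (SE 0.087) on the log2 scale in siRAB3IP against control.

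In control cells the median level of the members per kilobase of exon was 21.0 CPM, and the quartiles were 12.7 and 33.5 CPM per kb. MRPS34, a small subunit protein without a bacterial counterpart, was the highest at 148 ± 23.0 CPM per kb (SD, n = 2). It was followed by MRPS26, at 79.8 ± 14.7, and by MRPL51, at 77.8 ± 7.67. MRPL3, a core protein near the peptidyl transferase centre, stood at 76.4 ± 6.22 CPM per kb, MRPL41 at 71.4 ± 15.1 and MRPL37 at 68.2 ± 10.3. From MRPS26 to MRPL37 neighbours in this order differed by less than the SD of at least 1 of the pair.

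The lowest members were MRPL30 at 0.118 ± 0.0227 CPM per kb, MRPS24 at 1.2 ± 0.367, MRPL38 at 1.6 ± 0.247, MRPS6 at 2.88 ± 0.0256, MRPL46 at 2.96 ± 0.0532 and MRPL53 at 3.23 ± 0.0154. Fragments that touched more than 1 gene were not counted, and strand was not used. Of the exon bases of MRPL30, 88.6% are shared with other genes of the annotation, and for MRPL38 and MRPL53 the shares are 48.4% and 45.2%. MRPS24 shares 23.2% with the readthrough gene URGCP-MRPS24. In contrast MRPS6 and MRPL46 share 9.61% and 7.90%. In all, 37 members share exon bases with another gene and 14 share over 20%, so their levels are uncertain and may be understated.

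**Figure D2:**
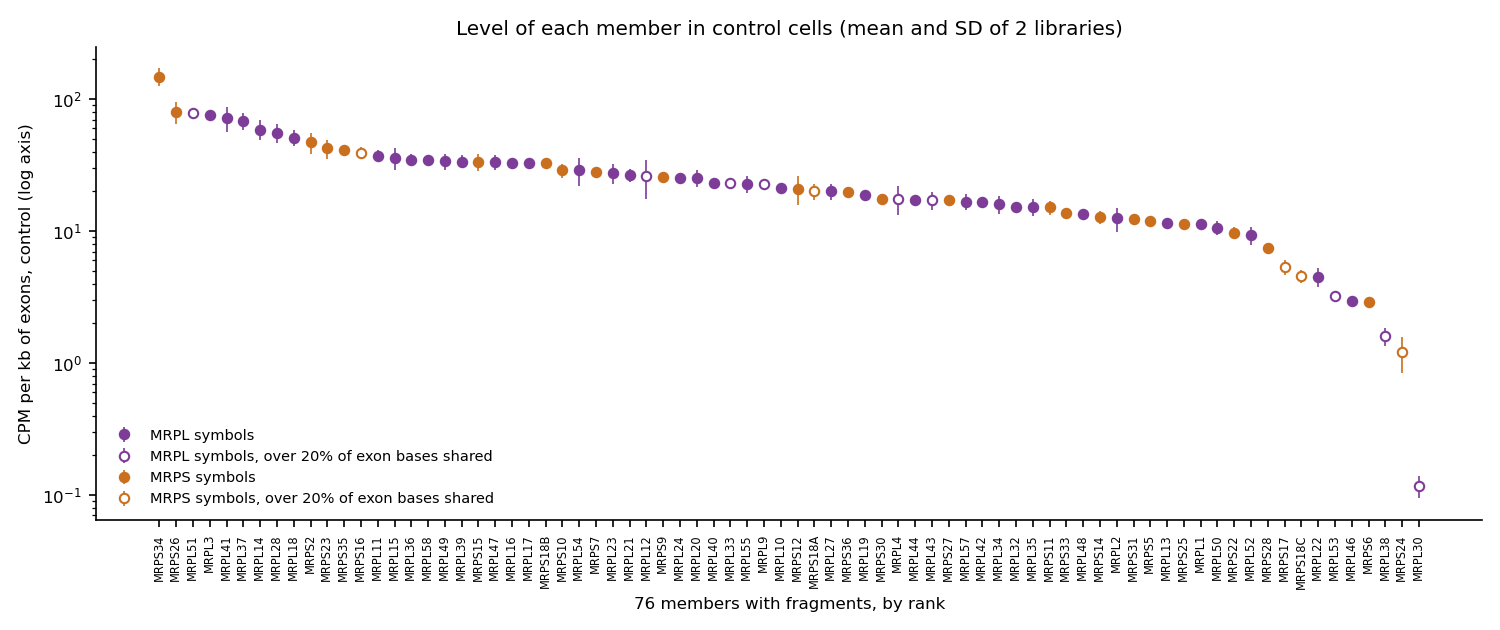
Level of each of the 76 members with fragments in control cells, in CPM per kilobase of exon on a log axis (mean and SD of 2 libraries), ordered by level and coloured by MRPL or MRPS symbol. Open symbols mark members sharing over 20% of exon bases with another gene; 5 of the 8 lowest are open, and MRPL30 stands far below the rest at 0.118.

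Against control, siRAB3IP changed 4 of 76 members: MRPL58 and MRPS27 fell, and MRPL33 and MRPS6 rose. The quasi-likelihood test of edgeR was used, with p-values adjusted by Benjamini-Hochberg over 22331 genes, and a member was called at an adjusted p under 0.05. The share called was 5.26% of the members, against 12% of all genes tested. The members' median log2 fold change was -0.01, as was that of all genes tested (-0.01), and 37 of 76 were above 0.

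MRPL58, also known as ICT1, is a peptidyl-tRNA hydrolase that releases stalled chains and is built into the large subunit. Its gene has 7 exon blocks at chr17:73008765-73017356 on hg19, none shared with another gene. MRPL58 stood at 40.8 and 35.5 CPM in control, 27.5 and 25.6 in siRAB3IP, and 42.8 and 41.4 in siCAMSAP1. Both siRAB3IP libraries were the lowest of the 6 and did not overlap either other group. The log2 fold change against control was -0.52 (SE 0.094, adjusted p = 0.0032), a 1.44-fold lower level. Against siCAMSAP1 it was -0.66 (SE 0.094, adjusted p = 0.000831).

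MRPS27 is a pentatricopeptide repeat protein of the small subunit, at chr5:71515236-71616473 on hg19. It stood at 108 and 114 CPM in control, 91.7 and 92.9 in siRAB3IP, and 107 and 108 in siCAMSAP1. The siRAB3IP libraries lay below the other 4. MRPS27 fell by 0.27 on the log2 scale against control (SE 0.075, adjusted p = 0.0337), and the call was lost when either siRAB3IP library, control replicate 2 or either siCAMSAP1 library was left out, and when the 2 groups were fitted alone.

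MRPL33 is the mitochondrial form of a bacterial large subunit protein, at chr2:27994584-28210954 on hg19, where it shares 21.1% of its exon bases with BABAM2. It stood at 36.6 and 34.2 CPM in control, 44.6 and 46.5 in siRAB3IP, and 40.7 and 46.5 in siCAMSAP1. Both control libraries were below the other 4, and the knockdown groups overlapped. MRPL33 rose by 0.36 on the log2 scale in siRAB3IP (SE 0.091, adjusted p = 0.0200), 1.29-fold. In siCAMSAP1 it differed by 0.30 (SE 0.091, adjusted p = 0.169), and the difference between the knockdowns was 0.06 (SE 0.090, adjusted p = 0.747). The call was lost without control replicate 2 or either siRAB3IP library.

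MRPS6 is the mitochondrial form of bacterial S6, a protein of the platform of the small subunit, and its gene at chr21:35445524-35515334 on hg19 shares 9.61% of exon bases with genes such as SLC5A3. It stood at 12.3 and 12.5 CPM in control, 15.5 and 16.8 in siRAB3IP, and 14.1 and 15.6 in siCAMSAP1. The control libraries were again the lowest, and the 2 knockdown groups overlapped. MRPS6 rose by 0.39 on the log2 scale in siRAB3IP (SE 0.112, adjusted p = 0.0399), and in siCAMSAP1 it differed by 0.26 (SE 0.112, adjusted p = 0.366). The call against control was lost without any 1 of the control or siRAB3IP libraries and under upper-quartile scaling.

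**Figure D3:**
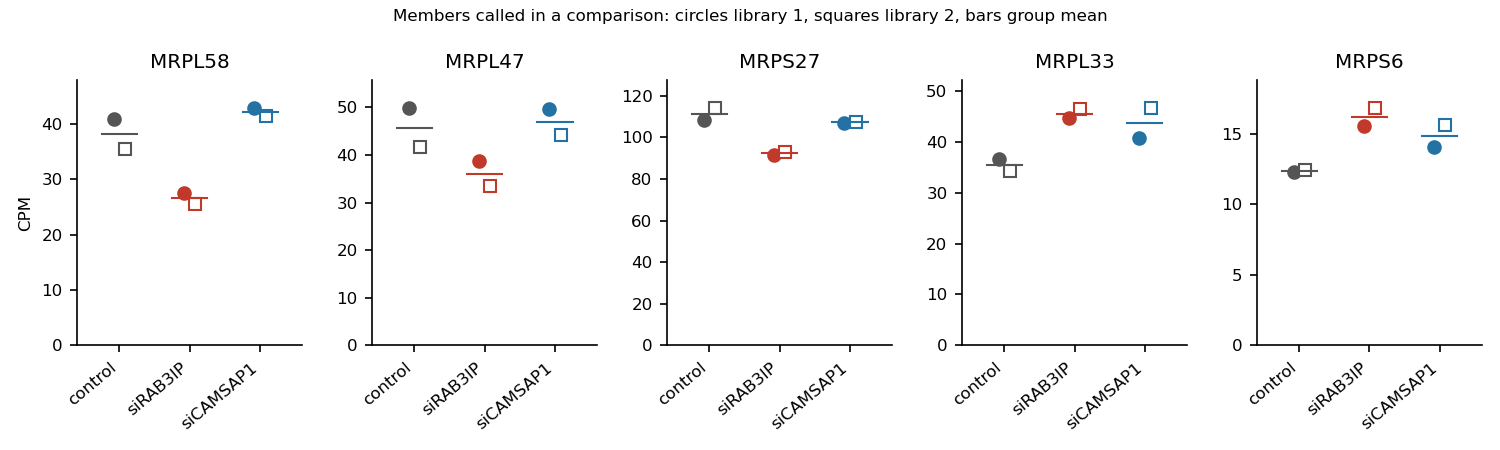
CPM of the 5 members called in a comparison, in each of the 6 libraries (circles library 1, squares library 2 of a group, bars the group mean, y axes from 0). MRPL58, MRPL47 and MRPS27 are lowest in both siRAB3IP libraries, and MRPL33 and MRPS6 are lowest in both control libraries.

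The other members at the ends of the siRAB3IP ranking did not pass the test. On the higher side MRPL27 differed by 0.29 (adjusted p = 0.0616), MRPL41 by 0.28, MRPS34 by 0.27, MRPL34 by 0.27, MRPL17 by 0.23, MRPS12 by 0.21, MRPS33 by 0.20 and MRPS24 by 0.20. The log2 ratio of control replicate 2 to replicate 1 ran from -0.63 (MRPS24) to -0.08 (MRPS33) over these 8. MRPL41 stood at 104 and 76.6 CPM in control, 116 and 103 in siRAB3IP, and 107 and 90.9 in siCAMSAP1. With the libraries taken as unpaired, control and siRAB3IP overlapped. At each replicate number MRPL41 was higher in siRAB3IP than in control, and it passed the test when the replicate number was added to the model. MRPL27, with 66.4 and 54.8 CPM in control and 76.4 and 72.2 in siRAB3IP, did not overlap between those groups. Without control replicate 1, MRPL27, MRPL41, MRPS34, MRPL34, MRPL17 and MRPS12 passed the threshold. Without siRAB3IP replicate 1, and likewise without siRAB3IP replicate 2, MRPL58 kept its call, while MRPS27, MRPL33 and MRPS6 lost theirs. Each of these fits left 1 library in a group, and in each fewer genes were called over the whole table than with all libraries.

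On the lower side MRPL47 differed by -0.34 (SE 0.107, adjusted p = 0.0553), MRPS18B by -0.26 (adjusted p = 0.071), MRPL22 by -0.21, MRPL57 by -0.20, MRPS9 by -0.19, MRPL55 by -0.17 and MRPL1 by -0.17. MRPL30 had the lowest log2 fold change, -0.68, with an SE of 0.571 from 7 to 16 fragments per library in those groups. The authors' deposited table for siRAB3IP, made with DESeq2, lists 7 members past their threshold among 2192 genes. MRPS6, called here, is not among the 7. The deposited table holds only genes past that threshold, so it gives no share of all genes tested. It gives log2 fold changes of -0.51 for MRPL58, -0.33 for MRPL47, -0.26 for MRPS27, 0.28 for MRPS34, 0.30 for MRPL41, 0.31 for MRPL27 and 0.37 for MRPL33.

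**Figure D4:**
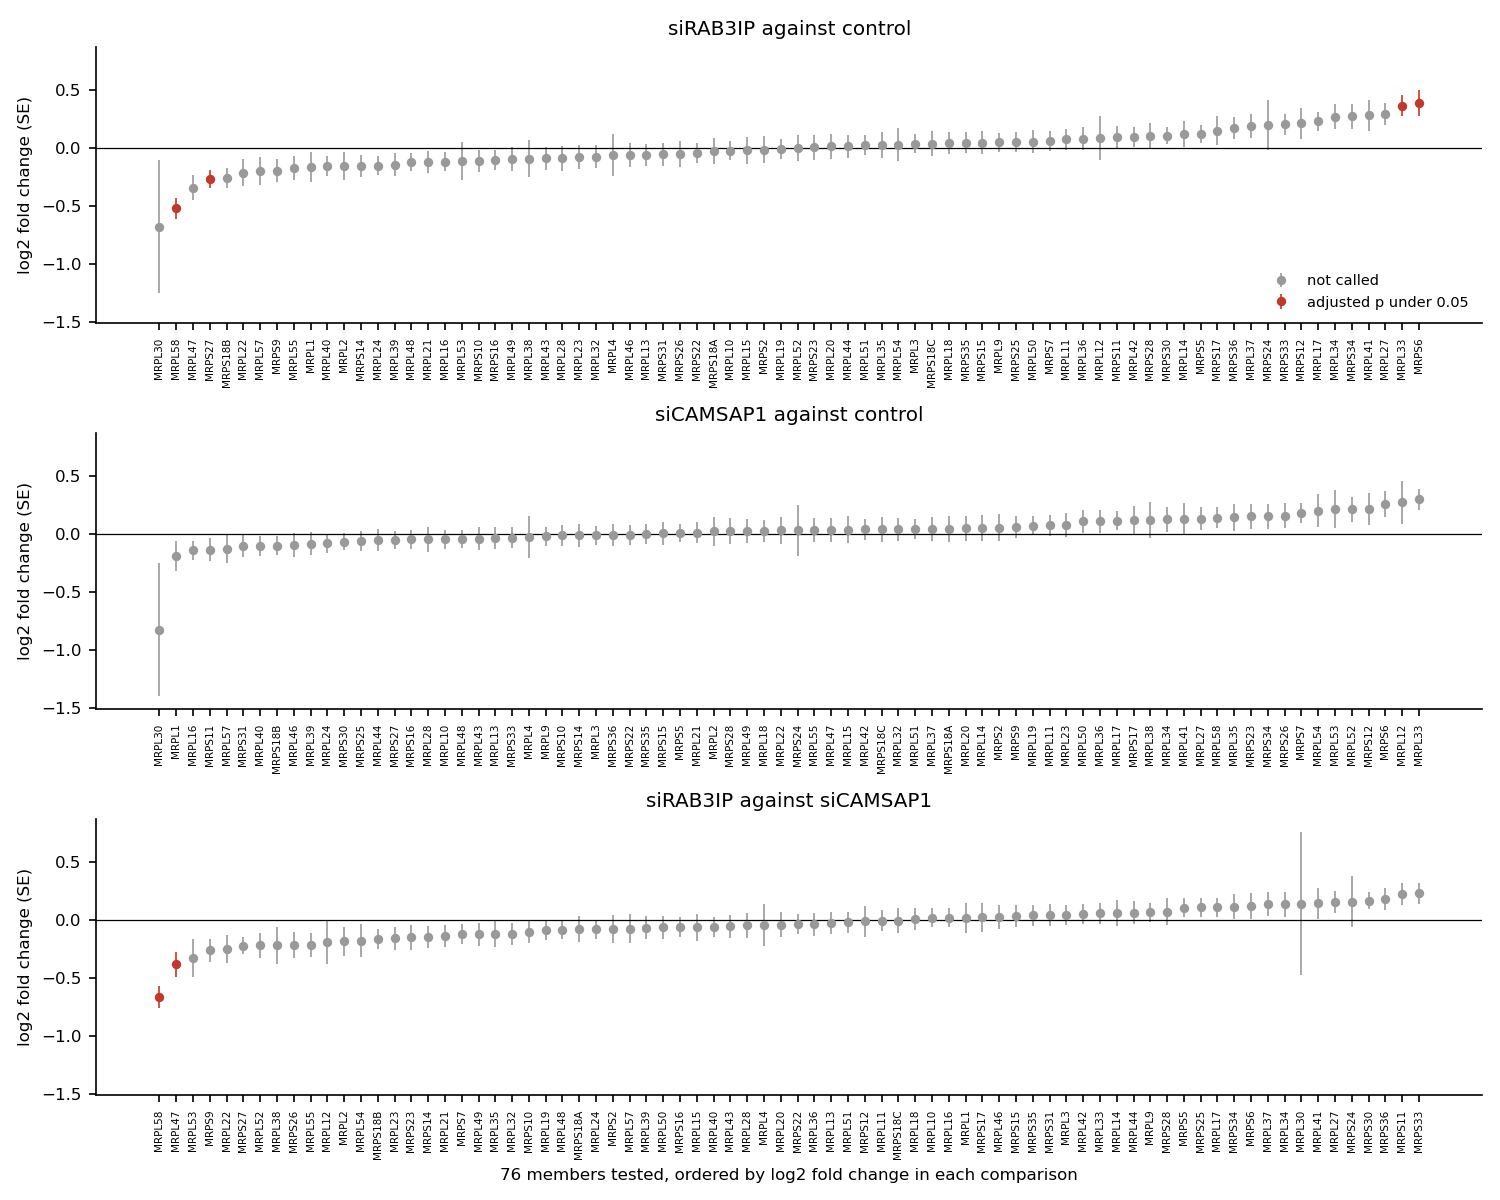
Log2 fold change with its SE (y axis) of the 76 members in each of the 3 comparisons, ordered within each panel. Red marks members with an adjusted p under 0.05: MRPL58, MRPS27, MRPL33 and MRPS6 against control in siRAB3IP, none in siCAMSAP1, and MRPL58 and MRPL47 between the knockdowns; most members lie near 0.

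Against control, siCAMSAP1 changed 0 of 76 members by edgeR's quasi-likelihood test and 0 by DESeq2, where 1.06% of all genes were called by edgeR. At an unadjusted p under 0.05 there were 2 members by edgeR and 1 by DESeq2, and 12.1% of all genes by edgeR. The members' median log2 fold change was 0.03 and that of all genes 0.00, and 47 of 76 members were above 0. The highest were MRPL33 at 0.30, MRPL12 at 0.28, MRPS6 at 0.26, MRPS12 at 0.22 and MRPL52 at 0.21. The lowest were MRPL30 at -0.82, MRPL1 at -0.19, MRPL16 at -0.14, MRPS11 at -0.13 and MRPL57 at -0.13. The SE for MRPL30 was 0.577. The authors' deposited table for siCAMSAP1 lists 474 genes and 0 members. Without control replicate 1, which left 1 control library, MRPL12 and MRPS12 were called higher, and the calls over all genes rose too. Both comparisons with control share its 2 libraries.

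Between the knockdowns, siRAB3IP against siCAMSAP1, 2 members differed where 9.3% of all genes did, and both were lower in siRAB3IP. MRPL58 was the first, with the values given above. MRPL47, a large subunit protein beside the tunnel exit through which new chains leave, is at chr3:179306073-179322442 on hg19. It stood at 49.8 and 41.7 CPM in control, 38.8 and 33.4 in siRAB3IP, and 49.7 and 44.2 in siCAMSAP1. The siRAB3IP libraries were the lowest of the 6. The log2 difference between the knockdowns was -0.38 (SE 0.107, adjusted p = 0.0416), and it missed the threshold without siRAB3IP replicate 2 or siCAMSAP1 replicate 1 and with limma-voom, each of which left MRPL58 as the 1 member called. Members not called ran up to MRPS33 at 0.23, MRPS11 at 0.23, MRPS36 at 0.18, MRPS30 at 0.17 and MRPS24 at 0.16, and down to MRPL53 at -0.33, MRPS9 at -0.26 and MRPL22 at -0.25. The median over members was -0.04, against -0.01 over all genes.

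By place in the particle, the 50 large subunit proteins had 1 member higher and 1 lower in siRAB3IP against control (4.0%, against 12% of all genes). Their median log2 fold change was -0.03. The 25 small subunit proteins tested had also 1 of each (8.0%, against the same 12%), with a median of 0.05. MRPS18A and MRPS30 are counted with the large subunit, where their proteins sit despite their symbols. The 30 large subunit proteins with a bacterial counterpart and the 20 without had medians of -0.02 and -0.05, and the 15 and 10 of the small subunit had 0.06 and -0.02.

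The central protuberance, where the large subunit faces the head of the small one, is represented by MRPL38, MRPL40, MRPL46, MRPL48 and MRPL58. All 5 had log2 fold changes below 0 in siRAB3IP against control, from -0.52 to -0.06 with a median of -0.12, but MRPL58 alone passed the test. At the polypeptide exit site, 0 of 7 passed in that comparison, and the values ran from -0.34 for MRPL47 to 0.23 for MRPL17 with a median of -0.15. The stalk, which recruits translation factors, and its base (MRPL10, MRPL11, MRPL12, MRPL53 and MRPL54) had 0 of 5 called and medians of 0.03 in siRAB3IP and 0.20 in siCAMSAP1. The stalk protein MRPL12 shares 68.2% of its exon bases with other genes and had the widest control gap of the members. It stood at 32.9 and 20.5 CPM in control, 28.4 and 28.1 in siRAB3IP, and 34.8 and 29.7 in siCAMSAP1. Its low control library lay below the other 5. The proteins around the decoding site and the mRNA channel (MRPS2, MRPS5, MRPS7, MRPS12 and MRPS24) also had 0 of 5 called, with medians of 0.12 and 0.06. Over all genes tested 12% were called in siRAB3IP against control and 1.06% in siCAMSAP1 against control. Lists of 5 to 7 genes are too short to be told apart from these shares.

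The 3 S18 proteins are paralogs that occupy different sites, MRPS18A in the large subunit and MRPS18B and MRPS18C in the small one. MRPS18B stood at 65.4 and 57.3 CPM in control, 52.4 and 50.4 in siRAB3IP, and 58.2 and 56.5 in siCAMSAP1, with the siRAB3IP libraries below the other 4 and no call. MRPS18A and MRPS18C differed from control by -0.03 and 0.04 on the log2 scale in siRAB3IP, and both overlapped between the groups. MRPS36 carries the symbol of the family but its protein belongs to the 2-oxoglutarate dehydrogenase complex. It stood at 32.0 and 29 CPM in control, 36.5 and 32.2 in siRAB3IP, and 31.0 and 29.6 in siCAMSAP1, and was not called.

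MRPL46 and MRPS11 are divergent neighbours on chromosome 15, with 33 bases between the annotated genes. They differed by -0.06 and 0.10 on the log2 scale in siRAB3IP, and by -0.09 and -0.13 in siCAMSAP1, and neither was called.

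The 2 libraries of each group differed in the same direction for most members. In control, replicate 2 was lower than replicate 1 for 72 of 76 members, with a median log2 ratio of -0.23, which is 14.4% lower. In siRAB3IP this held for 63 members with a median of -0.11, and in siCAMSAP1 for 60 members with a median of -0.10. Over the 11784 genes averaging 5 CPM or more, 55.9%, 55.1% and 53.7% were lower in replicate 2, with medians of -0.02, -0.02 and -0.01. For 55 of 76 members (72.4%) replicate 2 was lower in each of the 3 groups, against 29.5% of those genes. The members were not limited to 5 CPM, a mean that 73 of them reached in control. Among related genes listed below, this held for 4 of 5 ribosomal proteins with other symbols and 15 of 25 assembly factors. It also held for 11 of 16 genes of mitochondrial transcription and RNA processing, 7 of 16 translation factors and 1 of 9 regulators. Both lists of 16 hold 17 genes in the counts of calls below.

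The summed level of the members was 4885 and 4158 CPM in control, 4738 and 4391 in siRAB3IP, and 4794 and 4469 in siCAMSAP1. The control libraries were the highest and the lowest of the 6, so the groups overlapped. The replicate gap in control was widest for MRPL12 at -0.68, MRPS24 at -0.63, MRPL4 at -0.51, MRPS12 at -0.51 and MRPL54 at -0.50. MRPS6, MRPS27, MRPS30 and MRPL30 had the higher value in replicate 2 in each group. Of these 4, MRPS27 and MRPS6 are called members with small control gaps, 0.08 and 0.02. What lay behind the replicate gap was not tested.

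**Figure D5:**
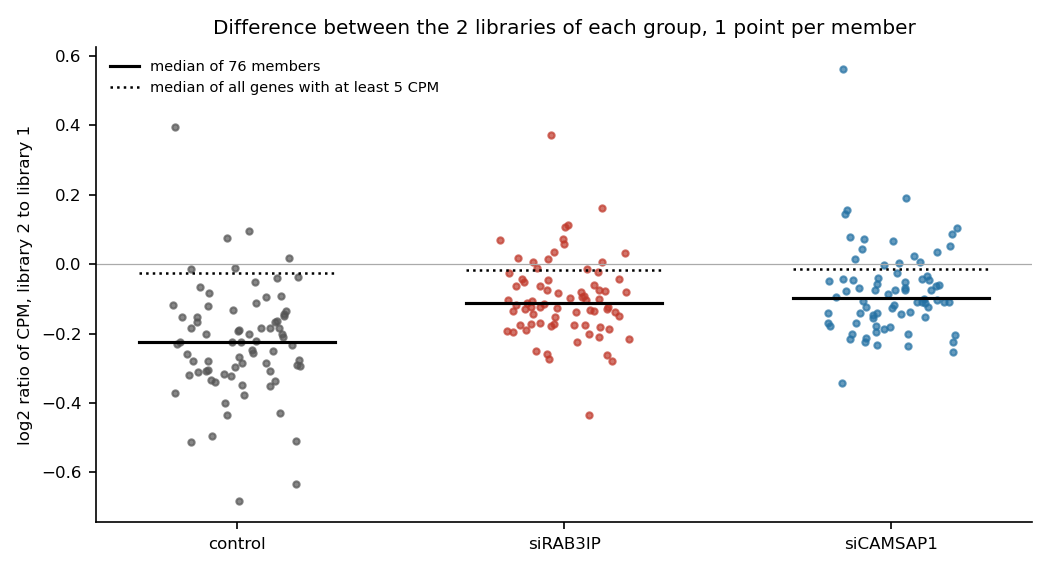
Log2 ratio of CPM in library 2 to library 1 of each group (y axis), with 1 point per member and bars for the median of the 76 members and, dotted, of all genes with at least 5 CPM. The member medians are -0.23, -0.11 and -0.10 in control, siRAB3IP and siCAMSAP1, below the all-gene medians of -0.02, -0.02 and -0.01.

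Separation of the groups was counted with the libraries taken as unpaired. The CPM of siRAB3IP and control did not overlap for 20 of 76 members (26.3%), against 53.7% of all genes tested. For siCAMSAP1 and control it was 12 members (15.8%) against 41.5%, and for the 2 knockdowns 32 members (42.1%) against 52.2%. The replicate gap was wider in members than in the genes averaging 5 CPM or more (control medians -0.23 and -0.02). A wider gap makes overlap more likely, so these shares do not compare the size of group differences. Leaving out control replicate 1 moved the members' median in siRAB3IP against control from -0.01 to 0.11, and leaving out control replicate 2 moved it to -0.12.

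Genes that work with the mitochondrial ribosome were counted by list. Of the list calls below, only those of TFB1M also held when the test required a minimum fold of 1.2. Over all genes tested 12% were called in siRAB3IP against control, 1.06% in siCAMSAP1 against control and 9.3% between the knockdowns. The proteins of this ribosome with other symbols (DAP3, PTCD3, CHCHD1, AURKAIP1 and GADD45GIP1) had 0 of 5 called in each comparison. Of 25 assembly factors, 1 fell and 0 rose in siRAB3IP against control (4.0%, against 12% of all genes). This was TFB1M, which methylates the small ribosomal RNA, with 16.7 and 15.0 CPM in control, 8.65 and 8.41 in siRAB3IP, and 13.8 and 15.4 in siCAMSAP1. TFB1M differed by -0.89 on the log2 scale from control (SE 0.12, adjusted p = 0.000495) and by -0.78 from siCAMSAP1 (SE 0.121, adjusted p = 0.00158). Its siRAB3IP libraries lay below the other 4.

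Of 17 translation factors, 1 was called in siRAB3IP against control (5.88%, against 12% of all genes). HEMK1, a methyltransferase of release factors, fell by 0.34 (SE 0.100, adjusted p = 0.0392). This call was lost with DESeq2, with the 2 groups fitted alone and without control replicate 2, either siRAB3IP library or siCAMSAP1 replicate 1. Between the knockdowns 1 of the 17 was called (5.88%, against 9.3% of all genes). The ribosome recycling factor MRRF was lower in siRAB3IP than in siCAMSAP1 by -0.50 (SE 0.104, adjusted p = 0.00891), and missed the threshold without siRAB3IP replicate 2. Of 17 genes of mitochondrial transcription and RNA processing, 0 were called against control in either knockdown. Between the knockdowns 1 was called (5.88%, against 9.3% of all genes). FASTKD5, which acts on mitochondrial mRNA ends, was lower in siRAB3IP than in siCAMSAP1 by -0.32 (adjusted p = 0.0333), a call lost without any 1 of those 4 libraries.

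Of 9 regulators of mitochondrial gene expression, 2 rose in siRAB3IP and 0 fell (22.2%, against 12% of all genes), and between the knockdowns 1 was higher and 1 lower in siRAB3IP (22.2%, against 9.3%). ESRRA, an orphan nuclear receptor, stood at 45.2 and 39.2 CPM in control, 58.3 and 59.9 in siRAB3IP, and 53.6 and 45.2 in siCAMSAP1, and rose by 0.48 (SE 0.099, adjusted p = 0.00686), a call lost without siRAB3IP replicate 2. PPRC1, a coactivator related to PGC-1, rose by 0.30 against control (SE 0.079, adjusted p = 0.0244) and differed by 0.27 from siCAMSAP1 (adjusted p = 0.0493). The PPRC1 call against control was lost without control replicate 2 or either siRAB3IP library, and the one against siCAMSAP1 without any 1 of the 4 libraries, with limma-voom and without the robust spread estimate. MYC was lower in siRAB3IP than in siCAMSAP1 by -0.27 (adjusted p = 0.0474), a call lost without any 1 of those 4 libraries, with limma-voom, with RLE scaling, with no filter on low counts and without the robust spread estimate.

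The 8-base word TGACTTAA, which earlier results of these data tied to genes lower in siRAB3IP, was looked for in annotated 3' UTRs. It was held by 2 of 76 members (2.63%), MRPL27 and MRPL42, against 5.01% of 14548 genes. The word or either 7-base part of it was held by 7 members (9.21%), against 18.3%. MRPL58 and MRPS27 hold neither. Members were shorter, with a median exonic length of 2434 bases against 4740 for protein-coding genes tested. The shares were not adjusted for length. Because the word came from these same data, the counts are a description only.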

How the data were processed

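Poly(A) RNA of 6 HEK293 libraries was counted by the authors with featureCounts 1.6.0 (primary alignments, both mates mapped, strand not used) on hg19, per the file headers; the deposited counts are fragments per gene. STAR and DESeq2 are named in the submitters' processing notes, and their versions are not given in the sources used here. For the signal columns the authors scaled each library's counts by a single size factor. The log2 fold changes with their errors, the score (Wald statistic) and the p-value columns of the deposited tables are the authors' own, for genes past their threshold only.

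Symbols came from a separate gene name list, or from GENCODE release 29 where that list gave no name. Gene types came from GENCODE release 29. Counts of 22331 genes entered the robust quasi-likelihood fit of edgeR 4.0.16 (R 4.3.3, TMM scaling, default filter), in which the 3 groups shared 1 model that left 3 residual degrees of freedom, with Benjamini-Hochberg adjustment. The SE is the log2 fold change divided by the root of F. The robust fit was chosen after results without it were seen, to match an earlier analysis of these data. Levels are CPM, and CPM per kb uses the union of exons. DESeq2 1.42.0 and limma 3.58.1 served as alternatives, and other scalings, filters and left-out libraries were tried.

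Members and lists were chosen with earlier results of these data known. Named members are all those called, the 10 highest and 10 lowest in siRAB3IP against control, the 5 in each direction in the other comparisons, the 6 highest and lowest by level, the S18 proteins and MRPS36, and of other lists the called genes. Of the list genes, 4 were matched to no identifier (LHX1, MRM1, MRPL45 and RCC1L). Intervals from 2 libraries per group are wide, and p-values cover the spread between libraries only.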

Additional observations from a re-analysis of the deposited data

Results flagged for a closer look

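The members MRPL58 and MRPL47 differed between the knockdowns by the direct test of siRAB3IP against siCAMSAP1, with edgeR's quasi-likelihood test. MRPL58 differed by -0.66 on the log2 scale (adjusted p = 0.000831) and was lower in both siRAB3IP libraries than in both siCAMSAP1 libraries. MRPL47 differed by -0.38 (adjusted p = 0.0416), also with no overlap between the groups.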

How the results depend on the processing

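Each comparison was recomputed under 18 alternatives. In siRAB3IP against control 4 members were called. The count was 8 with no filter on low counts and 8 with the length trend removed. With the replicate number as a block it was 15. Among the named members this added MRPL17, MRPL27, MRPL34, MRPL41, MRPL47, MRPL57, MRPS9, MRPS12, MRPS18B and MRPS34. The count was 0 at a minimum fold of 1.2. It was also 0 with grouping by sample titles, where 0 of all genes were called in each comparison. Over all genes 2671 were called in the main fit. This became 3274 with no filter, 3080 with the length trend removed and 702 at the minimum fold. The count of members rose without control replicate 1 and fell without control replicate 2 or either siRAB3IP library. Those fits left 1 library in a group, and in each the calls over all genes fell. It ran from 3 to 6 under the alternatives that kept all libraries and are not named above. In siCAMSAP1 against control, with 0 called, the block gave 1, and leaving out a library added calls only without control replicate 1. Between the knockdowns, with 2 called, the block gave 11, limma-voom 1, a minimum fold of 1.2 gave 1, the titles 0, and leaving out a library 1 to 2. The replicate block also raised the count over all genes from 2671 to 5590 in siRAB3IP against control. Libraries of the same number deviated together (r from 0.44 to 0.53 over 11784 genes). There are only 2 numbers and the labels name no batch, and whether libraries of the same number share one was not tested.

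The members' median log2 fold change ran from -0.12 to 0.11 in siRAB3IP against control, from -0.083 to 0.17 in siCAMSAP1 against control and from -0.09 to 0.03 between the knockdowns with 1 library left out, and was -0.12 in siCAMSAP1 against control with the titles. MRPL58 in siRAB3IP against control was called in 16 of 18 alternatives, all but the minimum fold of 1.2 and the titles, and between the knockdowns in 17. MRPL33 and MRPS6 were called in 13 and 11 of 18, MRPS27 in 10, and MRPL47 between the knockdowns in 13.

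Left-out libraries turned the sign of members that were not called. In siRAB3IP against control, MRPL1 ran from -0.40 to 0.035 (highest without siRAB3IP replicate 2), MRPS12 from -0.019 to 0.49 and MRPS24 from -0.087 to 0.54 (both lowest without control replicate 2). In siCAMSAP1 against control, MRPL12 ran from -0.030 to 0.66 and MRPS12 from -0.018 to 0.50 (both lowest without control replicate 2), and MRPL57 from -0.26 to 0.024 and MRPS11 from -0.26 to 0.000636 (both highest without control replicate 1). Grouping by titles moves 4 libraries to another group. In siRAB3IP against control it gave MRPL17 -0.17, MRPL27 -0.21, MRPL30 0.18, MRPL33 -0.11, MRPL34 -0.18, MRPL41 -0.26, MRPL47 0.045, MRPL58 0.20, MRPS12 -0.23, MRPS24 -0.43, MRPS27 0.15, MRPS33 -0.16, MRPS34 -0.20, MRPS6 -0.069, MRPS9 0.00259, COL1A1 0.36, ESRRA -0.16, HEMK1 0.12, INA -0.75, KRT18 0.16, KRT8 0.11, PPRC1 -0.18 and TFB1M 0.19. In siCAMSAP1 against control it gave MRPL12 -0.082, MRPL52 -0.062 and MRPS12 -0.10. Between the knockdowns it gave MRPL22 0.084, MRPL47 0.24, MRPL53 0.058, MRPL58 0.22, MRPS11 -0.024, MRPS24 -0.24, MRPS30 -0.060, MRPS33 -0.18, MRPS36 -0.043, MRPS9 0.14, COL1A1 0.16, FASTKD5 0.059, INA -0.74, KRT18 0.28, MRRF 0.18, MYC 0.18, PPRC1 -0.15 and TFB1M 0.27. The member tested with the fewest fragments was MRPL30, with 58 in all, and the part of its shared exons in this was not tested. Which grouping is right was not tested.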
